A study of Homo sapiens with 4 samples.

Results

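The miR-29 family was followed in exosomes, vesicles secreted by cells into the culture medium, from a pair of human colon cancer lines. Its members here are the 3 guide strands hsa-miR-29a-3p, hsa-miR-29b-3p and hsa-miR-29c-3p (miR-29a-3p, miR-29b-3p and miR-29c-3p below), taken by name from the 2588 mature miRNAs listed in each of 4 libraries. The study looked for miRNAs central to the malignancy of cancer stem cells. HCT29 sphere and HCT15 sphere exosomes came from spheres, floating colonies grown for 3 weeks in DMEM/F12 with N2 supplements, 10 ng/ml bFGF and 10 ng/ml EGF. HCT29 parental and HCT15 parental exosomes came from the lines in complete RPMI, switched to exosome-depleted complete RPMI for collection. All exosomes were purified by differential ultracentrifugation. Culture medium and sphere growth differ together, so they cannot be told apart. The growth protocol of the HCT29 samples names HCT15, so the labels leave the origin of those libraries unsettled.

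A miRNA guides the Argonaute complex to messenger RNAs that pair with its seed, the bases near its 5′ end, and lowers their translation and stability. The miR-29 family is known for repressing collagens and other matrix proteins, the DNA methyltransferases DNMT3A and DNMT3B and the survival protein MCL1, and it is repressed by MYC. It is often described as a tumour suppressor, and its loss in fibroblasts favours scarring.

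The mature sequences are shown because the members share a seed and differ in few other bases, which bears on how their reads can be told apart. They are RefSeq's (GRCh38.p14), 5′ to 3′, with the seed, bases 2 to 8, in capitals.
miR-29a-3p: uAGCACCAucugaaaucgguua
miR-29b-3p: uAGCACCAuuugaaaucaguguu
miR-29c-3p: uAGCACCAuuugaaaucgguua
Of 2370 human mature miRNA names in the RefSeq table, only these 3 (0.127%) have this seed. Counted from 1 at the 5′ end, miR-29a-3p and miR-29c-3p differ by C10U alone, while miR-29c-3p and miR-29b-3p differ by G18A, U21G and A22U over the 22 shared positions. The letters AGUGUU, reported in the nuclear import of miR-29b, occur in miR-29b-3p from position 18 to 23 and in neither other member, and in 0.549% of all mature names. GGAG, letters reported in the sorting of miRNAs into exosomes, occur in 15.7% of mature names and in none of the members. Both searches covered the mature strand alone, and a match or its lack is a description of letters.

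The members come from 4 hairpins in 2 clusters, all on the minus strand. On chromosome 7 (GRCh38), MIR29A lies from 130876747 to 130876810 and MIR29B1 from 130877459 to 130877539, 648 bases apart. GENCODE 29 places MIR29B1 in an exon of the long noncoding RNA gene LINC-PINT. On chromosome 1, MIR29C lies from 207801852 to 207801939 and MIR29B2 from 207802443 to 207802523, 503 bases apart and both in exons of MIR29B2CHG, their host gene. MIR29B1 and MIR29B2 give the same mature miR-29b-3p, so its reads cannot be assigned to a cluster.

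The values are RPM, reads scaled by the authors to a library total that all libraries share. Each group holds 1 library, so no ratio between libraries has a replicate error, and 95% intervals cover counting error only. Library totals recovered from the values ran from 110666 to 530920 reads, and the sphere library was 4.80 times as deep as the parental one in HCT29 and 3.15 times in HCT15. One read was therefore worth 1.88 RPM in HCT29 sphere, 9.04 in HCT29 parental, 2.17 in HCT15 sphere and 6.82 in HCT15 parental. All 8 markers of intestinal epithelium were detected in each library. They summed to 131997 and 96552 RPM in HCT29 sphere and HCT29 parental, and to 22713 and 14722 RPM in HCT15 sphere and HCT15 parental. Muscle markers (3 of 3) were at 0 in each library. miR-122-5p, the liver marker, had 1 read in HCT29 parental and 0 in the other libraries. Fewer vesicles that carry a miRNA and less of it per vesicle cannot be told apart in these bulk libraries, nor can fewer cells and less RNA per cell.

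miR-29a-3p made up most of the family in each library. It had 188 RPM in HCT29 sphere (153 to 229, 100 reads) and 913 RPM in HCT29 parental (743 to 1109, 101 reads). It had 2235 RPM in HCT15 sphere (2101 to 2376, 1031 reads) and 982 RPM in HCT15 parental (828 to 1156, 144 reads). HCT15 sphere was the highest and HCT29 sphere the lowest, and the intervals of the parental libraries overlapped each other and neither sphere library. Among the detected miRNAs its rank was 92 of 423 in HCT29 sphere, 62 of 392 in HCT29 parental, 44 of 712 in HCT15 sphere and 63 of 476 in HCT15 parental.

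miR-29b-3p, the member with the nuclear import letters, had 0 reads in HCT29 sphere, which allows up to 5.65 RPM at 3 reads, and 181 RPM in HCT29 parental (110 to 279, 20 reads). It had 132 RPM in HCT15 sphere (101 to 170, 61 reads) and 47.7 RPM in HCT15 parental (19.2 to 98.3, 7 reads). HCT29 parental and HCT15 sphere, the highest, had overlapping intervals, and the HCT15 parental interval lay below both.

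miR-29c-3p was close to the limit of detection, with 5.65 RPM in HCT29 sphere (1.17 to 16.5, 3 reads) and 18.1 RPM in HCT29 parental (2.19 to 65.3, 2 reads). It had 13.0 RPM in HCT15 sphere (4.77 to 28.3, 6 reads) and 27.3 RPM in HCT15 parental (7.43 to 69.8, 4 reads). All 4 intervals overlapped, and no difference was detectable at this depth. Because it differs from the far more abundant miR-29a-3p by C10U alone, and the sources used here do not give the mismatches allowed in counting, these few reads are uncertain.

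**Figure D1:**
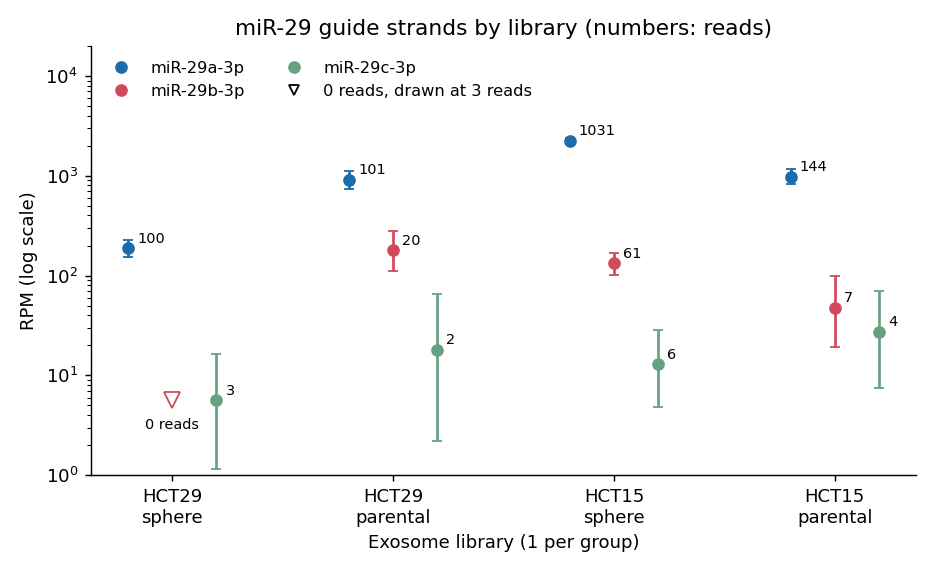
RPM on a log axis of the 3 guide strands in each exosome library, 1 library per group, with exact Poisson 95% intervals for counting error and the number of reads beside each point. miR-29a-3p was highest in HCT15 sphere (2235 RPM) and lowest in HCT29 sphere (188 RPM), and the open triangle marks the 0 reads of miR-29b-3p in HCT29 sphere, drawn at 3 reads.

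The first question was whether sphere exosomes differ from parental exosomes of the same line. In HCT15, miR-29a-3p was higher in sphere exosomes. It was 2.28-fold higher (1.91 to 2.73), with a log2 ratio of RPM + 1 of 1.19, and miR-29b-3p was 2.77-fold higher (1.27 to 7.18), with a log2 ratio of 1.45. miR-29c-3p had a ratio of 0.477 (0.113 to 2.30) and, with 6 sphere and 4 parental reads, missed the minimum of 10 reads. miR-29b-3p met that minimum through the sphere library alone. miR-29a-3p was thus called higher, where 32.1% of the 305 miRNAs tested in this line were called higher and 28.2% lower. The call of miR-29a-3p rests on the scaling. Relative to the listed miRNA reads alone its log2 ratio was 0.98, within 2-fold, while TMM gave 1.80 and DESeq2 size factors 1.71.

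In HCT29, miR-29a-3p was lower in sphere exosomes, by 4.85-fold (3.64 to 6.45), a log2 ratio of -2.27. miR-29b-3p, with 0 sphere and 20 parental reads, was at least 32.0-fold lower with the sphere library set to 3 reads, and the exact interval, which adds the counting error of the 20 reads, began at 23.7-fold lower. miR-29c-3p had a ratio of 0.313 (0.0358 to 3.74) on 3 sphere and 2 parental reads. Here miR-29b-3p met the minimum of 10 reads through the parental library alone. miR-29a-3p was thus called lower, where 36.2% of the 224 miRNAs tested were called lower and 23.2% higher. TMM scaling brought the log2 ratio of miR-29a-3p to -1.11 and DESeq2 size factors to -1.38, both still past 2-fold.

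Scaling moved all miRNAs of a comparison together, so the members were also set against the median of the miRNAs tested. TMM raised that median by 0.61 in HCT15 and by 1.15 in HCT29 on the log2 scale. miR-29a-3p lay 1.30 above the median log2 ratio in HCT15, with 95 of 305 tested miRNAs above it. In HCT29 it lay 1.70 below the median, with 33 of 224 below it. miR-29b-3p lay 1.57 above the median in HCT15, and with its HCT29 sphere count set to 3 reads its log2 ratio in HCT29 was -5.00.

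miR-29a-3p, with 100 reads or more in each library, thus had opposite directions in the lines. Its sphere over parental ratio was 11.0-fold lower in HCT29 than in HCT15 (7.95 to 15.3, counting error of the 4 counts only), and that of the summed family 12.9-fold lower (9.45 to 17.6). Being at least 2-fold higher in HCT15 spheres and at least 2-fold lower in HCT29 spheres was seen for 18 of the 188 miRNAs tested in both lines (9.57%), and miR-29a-3p and miR-29b-3p were 2 of these. miR-29b-3p met the read minimum in each line only through the library where it was high, so its place among them supports nothing. Under TMM scaling 10 of 188 had this pattern and under DESeq2 size factors 12, with both members among them each time. Per listed miRNA reads 16 had it, and miR-29a-3p, at 0.98 in HCT15, was not among them. With 1 library per line and culture, the difference between the lines has no replicate test.

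**Figure D2:**
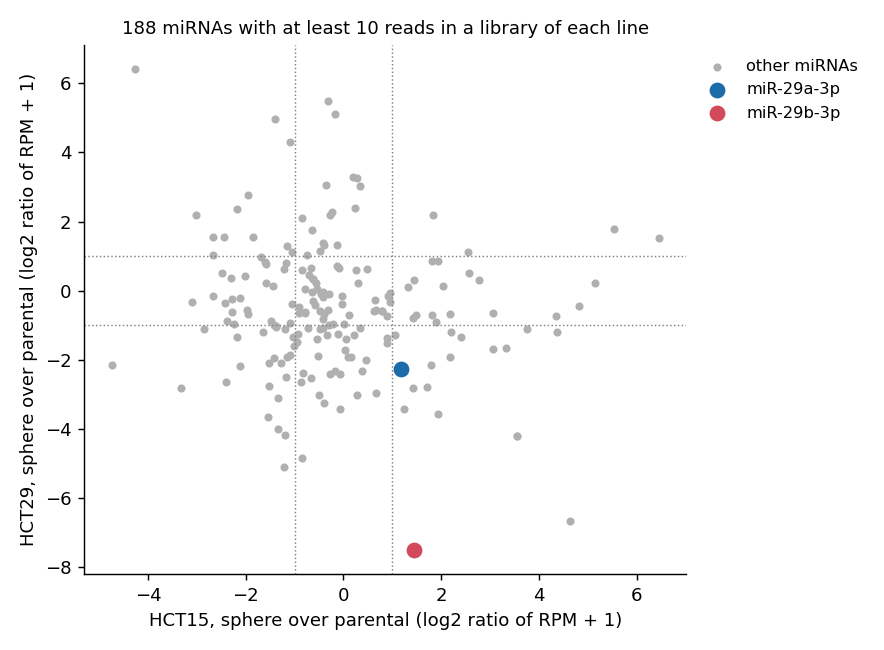
Log2 ratio of RPM + 1, sphere over parental, in HCT29 (vertical axis) against HCT15 (horizontal axis) for the 188 miRNAs that reached 10 reads in each line, with dotted lines at 2-fold. miR-29a-3p and miR-29b-3p both lie at lower right, up in HCT15 and down in HCT29, and the depth of miR-29b-3p on the vertical axis depends on the added 1 RPM because its sphere count was 0.

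The summed markers of fibroblasts and smooth muscle moved with the family in both lines, a sum that is mostly 1 miRNA, miR-143-3p. The 5 miRNAs summed to 181 RPM in HCT29 sphere and 1473 RPM in HCT29 parental, and to 4479 RPM in HCT15 sphere and 1180 RPM in HCT15 parental. miR-143-3p alone gave 168, 1184, 2886 and 1077 RPM in that order. Only 2 of the 5 reached 10 reads in an HCT29 library. miR-199a-5p and miR-214-3p, defining fibroblast markers, were at 0 in HCT29 sphere, HCT29 parental and HCT15 parental and were detected in HCT15 sphere, where 5 of 5 were present. Of the 8 epithelial markers, 4 were called higher and 2 lower in HCT15 spheres, beside 32.1% and 28.2% of all miRNAs tested. In HCT29 spheres 2 were called higher and 2 lower, beside 23.2% and 36.2%. Among them 2 of 8, miR-200a-3p and miR-141-3p, had the opposite calls of miR-29a-3p, beside 18 of 188 over all miRNAs (9.57%). miR-375 did not, with a log2 ratio of 5.50 in HCT29 and -0.31 in HCT15 (6.67 and 0.30 under TMM). The log2 ratio of miR-200a-3p was -3.57 in HCT29 and 1.93 in HCT15 (-2.40 and 2.54 under TMM). That of miR-141-3p was -1.66 in HCT29 and 3.33 in HCT15 (-0.49, within 2-fold, and 3.94 under TMM). The sum of the blood cell markers (7), mostly miR-486-5p, was lower in both sphere libraries. It was 360 RPM in HCT29 sphere and 1645 RPM in HCT29 parental, and 152 RPM in HCT15 sphere and 4023 RPM in HCT15 parental. miR-486-5p alone gave 322, 1437, 115 and 3109 RPM in that order. Under TMM its log2 ratio was -0.99 in HCT29, within 2-fold, and -4.14 in HCT15. Only 2 of the 7 reached 10 reads in an HCT29 library. In HCT29, miR-150-5p went the other way, on 8 sphere reads and 1 parental read. The nerve markers (2) had 2.17 RPM in HCT15 sphere and 1425 RPM in HCT15 parental and 0 in both HCT29 libraries. The part of these cell types, and of depth, in the values of miR-29 was not tested.

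The lines were also set side by side within a culture, in comparisons that use the same 4 libraries again. Between the parental libraries miR-29a-3p did not differ beyond counting error, at 0.929 times the HCT15 level in HCT29 (0.713 to 1.21). miR-29b-3p was 3.79-fold higher in HCT29 parental than in HCT15 parental (1.54 to 10.6), on 20 reads in HCT29 and 7 in HCT15. It met the minimum of 10 reads there through HCT29 parental alone, where it was high, so its call supports nothing. Of the 224 miRNAs tested there, 22.8% were called higher in HCT29 and 46.4% lower. Between the sphere libraries both members were lower in HCT29. miR-29a-3p was 11.9-fold lower there than in HCT15 sphere (9.66 to 14.7). miR-29b-3p, with 0 reads in HCT29 sphere and 61 in HCT15 sphere, was at least 23.4-fold lower, with an exact interval that began at 18.5-fold lower. It met the read minimum through HCT15 sphere alone. In that comparison the authors' scaling called 56% of the 325 miRNAs tested lower in HCT29 and 25.2% higher. More miRNAs than not thus shared the direction under that scaling. The median log2 ratio over all tested was -1.47, and miR-29a-3p, at -3.56, lay 2.09 below it. TMM called 153 of the 325 lower and 104 higher, with a median of -0.68. DESeq2 size factors called 156 lower and 99 higher, with a median of -0.79.

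**Figure D3:**
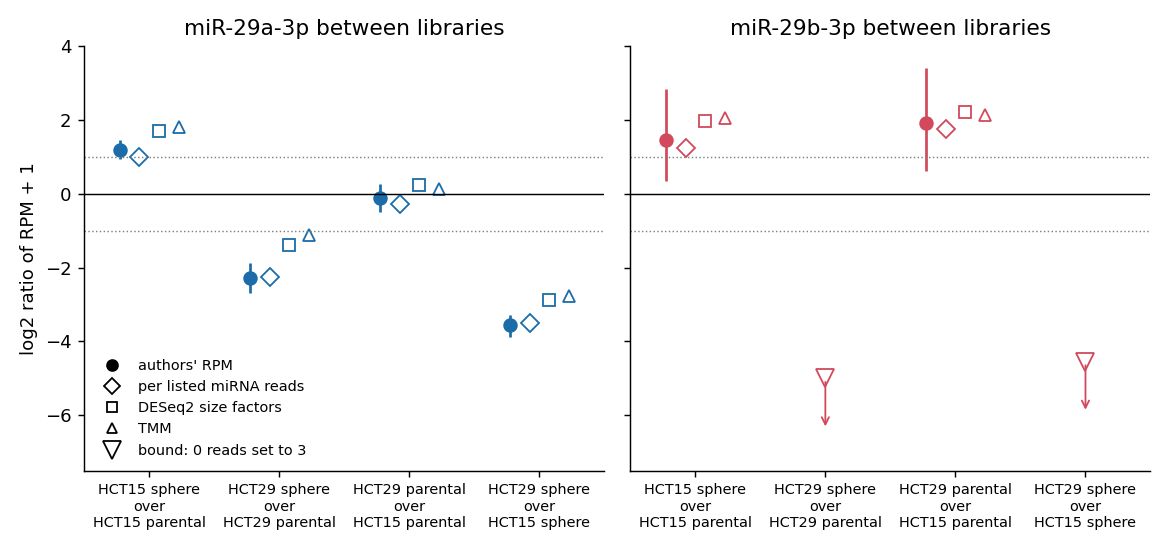
Log2 ratios of miR-29a-3p (left) and miR-29b-3p (right) in the 4 comparisons under the authors' RPM (filled, with the exact 95% counting interval) and 3 other scalings (open), with dotted lines at 2-fold. The 2 open inverted triangles with arrows are bounds for miR-29b-3p, whose HCT29 sphere count of 0 was set to 3 reads, and miR-29a-3p lies at or above 0.98 in HCT15 and at or below -1.11 in HCT29 under each scaling.

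With the lines as replicates of the culture effect, limma on log2(RPM + 1) gave miR-29a-3p a mean sphere minus parental log2 difference of -0.54 (SE 1.32, adjusted p 0.968), higher in 1 of 2 lines. For miR-29b-3p the difference was -3.03 (SE 1.52, limma adjusted p 0.882, unadjusted 0.0471), also higher in 1 of 2 lines. Its size is set by the 1 RPM added to the 0 reads of HCT29 sphere. With 10 RPM added, limma gave -1.48 (unadjusted p 0.194), and edgeR gave -1.58. DESeq2 gave -2.47 and limma on TMM-scaled values -2.57. Over all 222 miRNAs tested, limma called 0 higher (0%) and 0 lower (0%) at an adjusted p under 0.05, with 12 at an unadjusted p under 0.05. edgeR also called 0, with 3 at an unadjusted p under 0.05, and DESeq2 and limma on TMM-scaled values each called 1 higher, which was no member. The sign of miR-29a-3p turned under TMM scaling in limma, at 0.35, as in edgeR and DESeq2. For HCT29 minus HCT15 over both cultures, limma gave miR-29a-3p -1.83 (SE 1.32, adjusted p 0.425). It was lower between the sphere libraries. Its parental log2 ratio of -0.11 was within counting error and turned to 0.14 under TMM and 0.23 under DESeq2 size factors. For miR-29b-3p limma gave -2.58 (SE 1.52, adjusted p 0.293), lower in 1 of 2 cultures. The difference of miR-29b-3p was -1.05 with 10 RPM added, -1.51 in edgeR, -2.11 in DESeq2 and -2.48 in limma on TMM-scaled values. Neither passed, while 3.6% of the 222 were called higher in HCT29 and 9.01% lower. miR-29c-3p did not reach 10 reads in any library and was not in this fit.

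Shares within a library do not depend on the scaling between libraries, so the makeup of the family was compared as well. miR-29a-3p took 97.1% of the guide strand reads in HCT29 sphere (exact Clopper-Pearson interval 91.7 to 99.4, 103 reads) and 82.1% in HCT29 parental (74.2 to 88.4, 123 reads). It took 93.9% in HCT15 sphere (92.3 to 95.2, 1098 reads) and 92.9% in HCT15 parental (87.7 to 96.4, 155 reads). miR-29b-3p took 16.3% in HCT29 parental (10.2 to 24.0), above its 5.56% in HCT15 sphere (4.28 to 7.08) and its 4.52% in HCT15 parental (1.83 to 9.08). In HCT29 sphere it held 0 of 103 reads, with an exact upper limit of 3.52%, where 3 reads would be 2.91%.

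**Figure D4:**
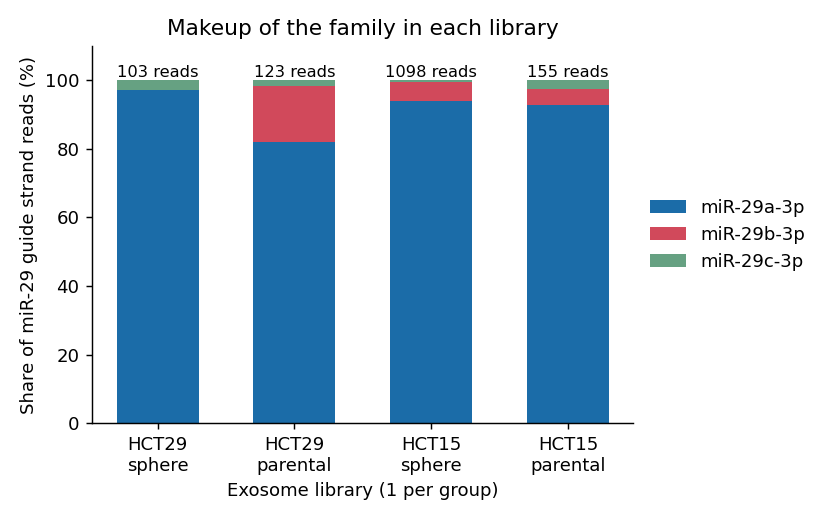
Stacked share in percent of the 3 guide strands among the miR-29 reads of each exosome library, with the number of reads above each bar. miR-29b-3p held 16.3% in HCT29 parental and 0 of 103 reads in HCT29 sphere, while it held 5.56% in HCT15 sphere and 4.52% in HCT15 parental.

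MIR29A and MIR29B1 lie in the same cluster, so reads of miR-29b-3p were also counted per 100 reads of miR-29a-3p. They numbered 0 in HCT29 sphere and 19.8 in HCT29 parental (11.6 to 32.2), and 5.92 in HCT15 sphere (4.49 to 7.66) and 4.86 in HCT15 parental (1.92 to 10.3). At the parental ratio, the 100 reads of miR-29a-3p in HCT29 sphere would go with 19.8 reads of miR-29b-3p, and 0 were counted. The exact upper limit of the HCT29 sphere ratio was 0.213 times the parental one. In HCT15 the sphere ratio was 1.22 times the parental ratio (0.542 to 3.22), so no difference was detectable there. Between the parental libraries, the ratio in HCT29 was 4.05 times that in HCT15 (1.57 to 11.8). These intervals compare libraries, not conditions.

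The opposite strands of the 4 hairpins, which are mostly discarded when the guide is loaded, were rare. miR-29a-5p had 0 reads in HCT29 sphere, 1 in HCT29 parental, 8 in HCT15 sphere and 2 in HCT15 parental. miR-29b-1-5p, from the chromosome 7 hairpin, had 0 reads in both HCT29 libraries, 4 in HCT15 sphere and 1 in HCT15 parental. miR-29b-2-5p, from the chromosome 1 hairpin, had 1 read in HCT29 parental and 0 elsewhere, and miR-29c-5p had 2 reads in HCT15 sphere and 0 elsewhere. Together they made up 0 of 103 reads of the hairpins in HCT29 sphere, 1.60% in HCT29 parental (0.194 to 5.66), 1.26% in HCT15 sphere (0.690 to 2.10) and 1.90% in HCT15 parental (0.393 to 5.45). None reached 10 reads, and the intervals overlapped. The reads of the b strands, 5 from MIR29B1 in HCT15 and 1 from MIR29B2 in HCT29, are too few to say which hairpin gave miR-29b-3p in either line.

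The miRNAs nearest to miR-29a-3p in pattern were taken among 220 others that reached 10 reads in 2 or more libraries, by Euclidean distance of log2(RPM + 1) centred on the own mean over the 4 libraries. Nearest was miR-143-3p, a miRNA of smooth muscle and fibroblasts and a member of the marker list above, at a distance of 0.44 where the median was 2.92. It had 168 RPM in HCT29 sphere, 1184 RPM in HCT29 parental, 2886 RPM in HCT15 sphere and 1077 RPM in HCT15 parental. It was thus 7.06-fold lower in HCT29 spheres than in HCT29 parental exosomes (5.35 to 9.35) and 2.68-fold higher in HCT15 spheres than in HCT15 parental exosomes (2.27 to 3.18). Next came miR-23a-3p of the miR-23-27-24 cluster (0.79), miR-15b-5p (0.82), miR-181c-5p (0.84) and miR-15a-5p (0.92), of which miR-15a-5p and miR-15b-5p are of the miR-15 and miR-16 family. All 5 were lowest in HCT29 sphere and highest in HCT15 sphere, which their choice by likeness to miR-29a-3p favours. For miR-15a-5p, HCT15 sphere was 1.31 times HCT15 parental (0.773 to 2.33), within counting error. The family member miR-29b-3p lay at 3.78 from miR-29a-3p, rank 153. That distance depends on the 1 RPM added to its 0 reads in HCT29 sphere, so it does not measure how unlike the 2 members are. With 4 libraries these distances are a description.

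**Figure D5:**
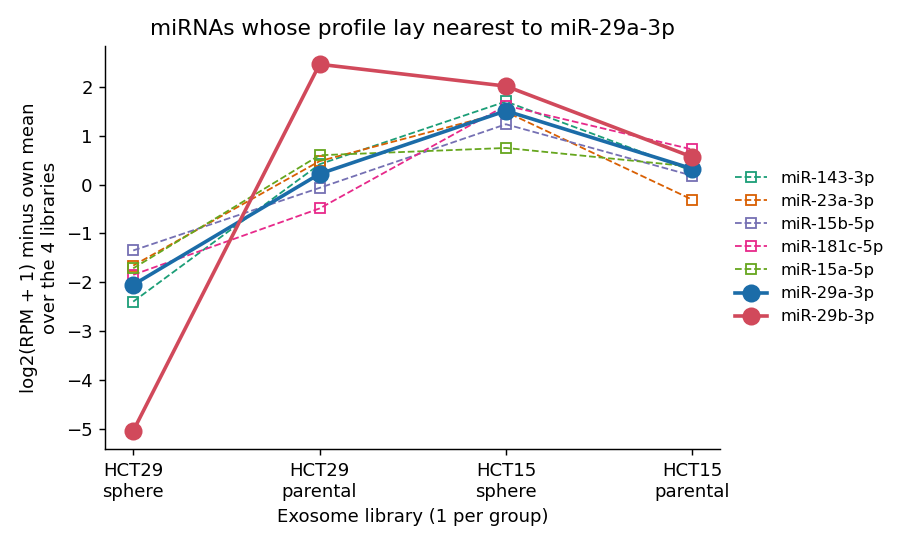
log2(RPM + 1) of each miRNA minus its own mean over the 4 exosome libraries, for miR-29a-3p and miR-29b-3p (filled) and the 5 miRNAs nearest to miR-29a-3p (open squares, dashed); lines only join the points of 1 miRNA. The nearest, miR-143-3p, lay at a distance of 0.44, while miR-29b-3p lay at 3.78, lower in HCT29 sphere and higher in HCT29 parental. The profile of miR-29b-3p depends on the 1 RPM added to its 0 reads in HCT29 sphere.

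Both lists of other miRNAs gave a setting for the family. Of 20 other miRNAs reported as repressed by MYC, 18 were tested in HCT15. There 4 were called higher and 6 lower in spheres, beside 32.1% higher and 28.2% lower of all 305 tested. The list had a median log2 ratio of -0.46 beside -0.12 over all tested. TMM scaling gave 4 higher and 4 lower of the list in HCT15, beside 123 higher and 51 lower of all 305. It turned the list median to 0.15, beside 0.49 over all tested. DESeq2 size factors turned the list median to 0.06, beside 0.41 over all tested. In HCT29, 17 were tested, and 2 were called higher and 10 lower, beside 23.2% higher and 36.2% lower of all 224 tested. The list median was -1.25 beside -0.57 over all tested. TMM scaling left 4 lower with 3 higher in HCT29, beside 36 lower and 94 higher of all 224. It brought the list median to -0.08, beside 0.58 over all tested. Of the 17 tested in both lines, 1, miR-23a-3p, had the opposite calls of miR-29a-3p, beside 18 of 188 over all miRNAs (9.57%). Its HCT29 log2 ratio of -2.14 became -0.97, within 2-fold, under TMM. The most abundant of the list went other ways. let-7a-5p, a tumour suppressor, was 1.27-fold lower in HCT29 spheres (1.19 to 1.35) and 5.34-fold lower in HCT15 spheres (5.13 to 5.56). let-7f-5p, its close relative, was 1.39-fold lower in HCT29 spheres (1.32 to 1.47) and 1.89-fold lower in HCT15 spheres (1.77 to 2.02), within 2-fold in both. miR-22-3p was 1.08-fold higher in HCT29 spheres (0.989 to 1.19) and 2.48-fold higher in HCT15 spheres (2.37 to 2.61). miR-30d-5p was 1.16-fold lower in HCT29 spheres (1.08 to 1.23) and 4.33-fold lower in HCT15 spheres (3.98 to 4.72). The HCT29 directions of these rest on the scaling. Under TMM the HCT29 log2 ratios of let-7a-5p, let-7f-5p and miR-30d-5p turned to 0.82, 0.69 and 0.96, and that of miR-22-3p became 1.28, past 2-fold.

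The other list holds 3 miRNAs reported to target DNA methyltransferases, as miR-29 does. In HCT15 none of the 3 was called in either direction, beside 32.1% higher and 28.2% lower of all 305 tested. TMM and DESeq2 size factors each called 2 higher, where they called 123 and 120 of all 305 miRNAs tested higher. miR-148a-3p, their most abundant member, was 1.56-fold higher in HCT15 spheres (1.46 to 1.68) and 1.20-fold lower in HCT29 spheres, an interval of 0.979 to 1.45 that includes 1. Under TMM its HCT29 log2 ratio turned to 0.91. miR-148b-3p was 1.16-fold higher in HCT15 spheres (0.900 to 1.50) and 2.41-fold lower in HCT29 spheres (1.82 to 3.17). That was the 1 lower call among the 2 tested in HCT29, beside 36.2% lower and 23.2% higher of all 224 tested. TMM scaling took its HCT29 ratio to within 2-fold. miR-152-3p was 1.96-fold higher in HCT15 spheres (1.06 to 3.97), on 74 sphere and 12 parental reads, and in HCT29 it had 7 sphere reads and 0 parental reads.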

How the data were processed

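Small RNA libraries were made with TruSeq chemistry from purified exosomes of 4 cultures, 1 library per line and culture, per the labels' protocols. Per the file headers, the deposited HCT15 values are RPM, reads scaled by the authors to a common library total. The HCT29 headers name the culture without a unit. Those deposited columns were taken as RPM too, since their values are multiples of 1 step. The submitters' processing notes name hg19; the sources used here do not give the aligner, its mismatches or the miRNA release. Whole reads were recovered from the RPM by searching the library total at which every value is a whole number of reads (100% of nonzero values within 0.1 read). Recovered totals were 530920 reads for HCT29 sphere, 110666 for HCT29 parental, 461226 for HCT15 sphere and 146648 for HCT15 parental, and the values do not hold the authors' original counts.

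Log2 ratios were taken on RPM + 1 where either library held 10 reads or more, and called at 2-fold. Folds are ratios of RPM with exact conditional binomial 95% intervals, and levels carry exact Poisson 95% intervals (scipy 1.17.1). A count of 0 was set to 3 reads per library for bounds. Intervals and floors cover counting error only. limma 3.58.1 with a mean-variance trend, terms for line and culture and Benjamini-Hochberg adjustment was run over all 4 libraries on miRNAs that reached 10 reads in 2 or more of them. It has 1 residual degree of freedom, and its spread was in effect pooled over all miRNAs. edgeR 4.0.16, DESeq2 1.42.0, TMM and DESeq2 size factors, scaling to the listed miRNA reads, another pseudocount and other read minimums were the alternatives. Recovery, intervals and limma were tested on simulated data.

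The members and lists were chosen with earlier results of these data known. Named besides the guide strands and their opposite strands are the 5 miRNAs nearest to miR-29a-3p by Euclidean distance of centred log2(RPM + 1) over the 4 libraries, and up to 4 members per list with the highest summed RPM. Individual markers of other cell types, and of epithelium, named with their values or as being at 0 fall outside this rule and were chosen after their values were seen. Sequences and GRCh38.p14 positions come from RefSeq and hosts from GENCODE 29; the files hold no coordinates.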

Additional observations from a re-analysis of the deposited data

Results flagged for a closer look

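miR-29a-3p and miR-29b-3p were flagged in the deposited RPM, each at least 2-fold lower in HCT29 spheres and at least 2-fold higher in HCT15 spheres. This pattern was seen for 18 of the 188 miRNAs tested in both lines (9.57%). miR-29b-3p met the read minimum in each line only through the library where it was high, so its place there supports nothing. Per listed miRNA reads, miR-29a-3p had a log2 ratio of 0.98 in HCT15 and lost the pattern. For miR-29a-3p the HCT29 minus HCT15 difference in log2 fold, sphere over parental, was -3.46. For miR-29b-3p the difference was -6.47 with the HCT29 sphere count of 0 set to 3 reads. Whether the lines differ was not tested over replicates, because each line and culture has 1 library.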

How the results depend on the processing

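No paired analysis was possible because the labels give no replicate numbers and each group holds 1 library, other than the limma fit, whose line term pairs the sphere and parental libraries of a line. No library was left out, as each is the only one of its group. Of 104 alternative values, 85 kept their direction and call and stayed within the counting interval of ratios and shares. In HCT15, sphere over parental, the log2 ratio of miR-29a-3p was 1.80 under TMM, 1.71 under DESeq2 size factors and 0.98 per listed miRNA reads (family sum 1.78, 1.70 and 0.96), and in HCT29 it was -1.11 under TMM and -1.38 under DESeq2 size factors (family sum -1.35 and -1.63). Between the sphere libraries it was -2.76 and -2.87 (family sum -2.81 and -2.92). Each of these shifts follows from the factors themselves, which move all miRNAs of a comparison together, by a median of 1.15 in HCT29 and 0.61 in HCT15 under TMM. With 10 RPM added in place of 1, the log2 ratio of miR-29b-3p was -4.25 in HCT29 and -3.83 between the sphere libraries, since a ratio against 0 reads is set by the added value. The culture effect of miR-29a-3p, -0.54 in limma, reversed to 0.35 with TMM-scaled values, 0.15 in edgeR and 0.13 in DESeq2, all far from the threshold. Adjusted p over the alternatives ran from 0.851 to 0.999 for miR-29a-3p and from 0.786 to 0.999 for miR-29b-3p for culture, and from 0.460 to 0.794 and from 0.338 to 0.835 for line. Depth limits miR-29c-3p and the opposite strands, none of which reached 10 reads in any library. A minimum of 20 reads, or none, changed no ratio of miR-29a-3p or miR-29b-3p and left both measured in all 4 comparisons.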
